A study of Arabidopsis thaliana with 8 samples.

Results

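The LHCB4 genes encode CP29, a minor antenna protein of photosystem II, and the Affymetrix table held 1 probe set for each of the 3 Arabidopsis thaliana genes, LHCB4.1 (AT5G01530), LHCB4.2 (AT3G08940) and LHCB4.3 (AT2G40100). They were chosen by the names of these probe sets, 3 of 22746 tested, with earlier results of these data known. Total RNA came from whole wild type Col-0 seedlings aged 4 days, grown in the dark at 21 °C on medium with 1% sucrose, and each of 4 groups had 2 arrays. The dark group had neither light nor lincomycin, the red group had 30 min of red light without lincomycin, the dark lincomycin group grew on lincomycin in darkness, and the red lincomycin group grew on lincomycin and had the same 30 min of red light. The dose of lincomycin was 220 µg/ml by the labels' protocol but 200 µg/ml by the sample source, and nothing settles which. The labels do not say whether the replicate arrays came from separate cultures, so p-values measure the spread between these arrays, which may be technical.

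CP29 is a chlorophyll a/b-binding protein of the thylakoid membrane that sits between the photosystem II core and the trimeric antenna, passes excitation energy to the core and takes part in its regulation by phosphorylation. The protein is made from nuclear genes in the cytosol and imported into the plastid. Nuclear antenna genes are a standard readout of phytochrome, the red light receptor, and of signals from the plastid to the nucleus. Lincomycin blocks protein synthesis in plastids and is commonly used to disturb those signals. LHCB4.3 is a divergent form of the protein found in some dicots, while LHCB4.1 and LHCB4.2 are close copies of each other. The probe sequences were not used here, so signal from one copy on the probe set of another was not tested.

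The highest levels of all 3 LHCB4 genes were on the 2 arrays of the red group. Levels are RMA intensities, the deposited linear-scale values normalized between arrays, and each is read only against the same probe set on other arrays. LHCB4.1 stood at 2731 and 2461 in the red group, against 1932 and 2048 in the dark group. Both red arrays were thus above both dark arrays, and the nearest pair differed 1.20-fold.

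On lincomycin LHCB4.1 stood at 1616 and 1740 in darkness and at 1537 and 1034 after red light. All 4 lincomycin arrays were below the 4 arrays without it, and the 2 arrays after red light were the lowest. Lower values on lincomycin without overlap were found in 25.6% of all probe sets in darkness and 20.5% after red light. The replicates of the red lincomycin group differed 1.49-fold, the widest pair for this gene. In the order of the group levels, red, dark, dark lincomycin and red lincomycin, no neighbouring groups overlapped. Neither this order nor the split by lincomycin was counted over all probe sets.

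LHCB4.2 had the widest range of the 3 genes, 4.22-fold over the 8 arrays. It stood at 838 and 1243 in the red group, against 294 and 524 in the dark group, whose replicates differed 1.78-fold. On lincomycin it stood at 423 and 465 in darkness and at 547 and 362 after red light. Only the red group stood apart; the other 3 groups, with geometric means of 393, 443 and 445, overlapped one another.

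LHCB4.3 had the narrowest range of the 3, 1.82-fold. Its intensities were 100.4 and 96.0 in the red group and 84.2 and 62.2 in the dark group. The dark lincomycin group gave 55.3 and 65.3, and the red lincomycin group 59.2 and 68.1. Again the red group did not overlap any other, while the dark, red lincomycin and dark lincomycin groups overlapped in that order.

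**Figure D1:**
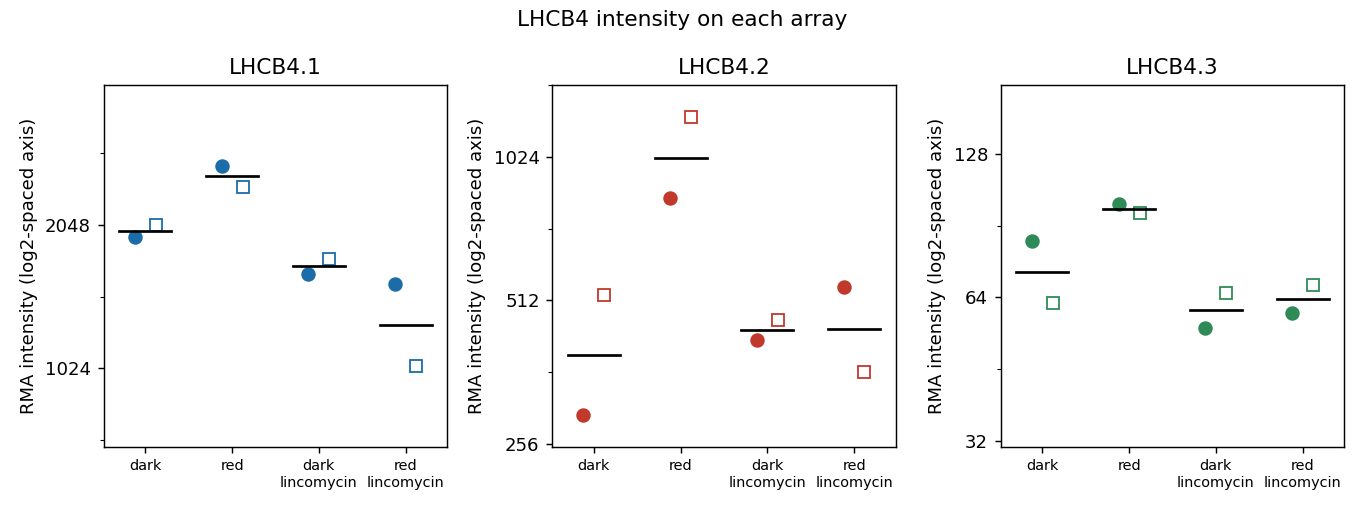
RMA intensity of LHCB4.1, LHCB4.2 and LHCB4.3 (log2-spaced axis, own scale for each gene) on the 8 arrays of the dark, red, dark lincomycin and red lincomycin groups. Filled circles are replicate 1, open squares replicate 2 and lines the geometric mean. The 2 red arrays are the highest for each gene. For LHCB4.1 the lincomycin arrays are the 4 lowest, a split not counted over all probe sets.

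That both red arrays were the 2 highest of the 8 was true of 3 of 3 LHCB4 genes and of 3.09% of all probe sets tested (702 of 22746). This way of counting was chosen after the values were seen, and it is given as a description. The gap between the lower red array and the highest of the other 6 was 1.53-fold for LHCB4.2, 1.20-fold for LHCB4.1 and 1.14-fold for LHCB4.3.

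The array set has limits that touch these values. Array medians ran from 32.0 to 36.1, and replicates differed more without lincomycin: replicate differences (log2) over all probe sets had a standard deviation of 0.538 for dark and 0.442 for red arrays, against 0.211 and 0.224 for the lincomycin groups. Replicate 1 of the dark group had a ratio of 3' to 5' actin control signal, commonly read as a sign of RNA degradation, of 41.2 and 18.7 on its 2 pairs of control probe sets, against at most 6.90 on the other 7 arrays. Replicate 1 of the red group had the lowest hybridisation spikes, at 6.88 (mean log2) against 7.63 to 8.91. Values without these 2 arrays are given below.

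Red light without lincomycin was the comparison with the largest increase of an LHCB4 gene. LHCB4.2 was 2.60-fold higher in the red than in the dark group, a log2 change of 1.38 ± 0.33 (SE of the limma fit), with a 95% confidence interval of 0.59 to 2.16 and an adjusted p of 0.156. The log2 change is the difference between group means of log2 intensity, and p-values were adjusted over all 22746 probe sets by the Benjamini-Hochberg method. Of all probe sets, 0.51% had a higher change.

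LHCB4.1 and LHCB4.3 had smaller differences after red light without lincomycin. LHCB4.1 was at 0.38 ± 0.20 (1.30-fold, interval -0.09 to 0.85, adjusted p = 0.450). LHCB4.3 was at 0.44 ± 0.19 (1.36-fold, adjusted p = 0.349), with an interval whose lower end lay at 1.00-fold and whose upper end lay at 1.84-fold. None of the 3 genes passed an adjusted p of 0.05, where 0.189% of all probe sets did. Red and dark arrays did not overlap for 3 of 3, all higher, as was true of 16.9% of all probe sets. Before adjustment 1 of 3, LHCB4.2 with a limma p of 0.00415, was higher at p under 0.05, against 5.44% of all probe sets.

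The size of the LHCB4.2 difference depended on the dark and the red arrays. Without red replicate 1 it was 1.66, and without red replicate 2 it was 1.09. Without dark replicate 2 it was 1.79, in a fit whose whole dark group was dark replicate 1, the array with the high actin ratio. Without dark replicate 1 it was 0.96. Without both dark replicate 1 and red replicate 1 it was 1.25 (adjusted p = 0.0529), LHCB4.3 was at 0.63 (adjusted p = 0.110) and LHCB4.1 at 0.27 (adjusted p = 0.608).

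Without dark replicate 2 the change of LHCB4.3 was 0.22, and without dark replicate 1 it was 0.66. The 2 genes thus took opposite sides on the dark arrays: LHCB4.2 was lower on replicate 1 and LHCB4.3 on replicate 2. LHCB4.1, whose dark replicates differed 1.06-fold, ran from 0.31 to 0.46 with any single array left out.

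**Figure D2:**
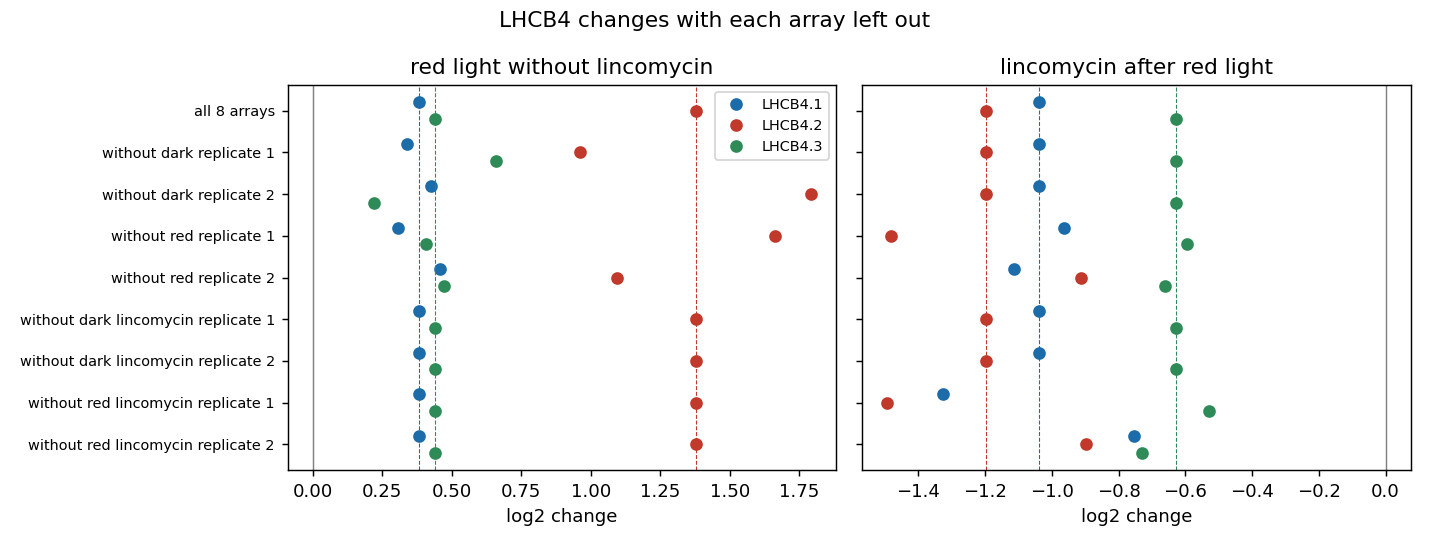
Log2 change of each LHCB4 gene after red light without lincomycin (left) and on lincomycin after red light (right) with all 8 arrays and with each array left out in turn; dashed lines mark the value with all arrays. LHCB4.2 without lincomycin runs from 0.96 to 1.79 with the dark arrays left out and from 1.09 to 1.66 with the red arrays left out. No value crosses 0.

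On lincomycin, the change after the same 30 min of red light ran from -0.41 to 0.08 (log2) over the 3 LHCB4 genes. LHCB4.2 was at 0.01 ± 0.33, with an interval of -0.78 to 0.79, and its arrays overlapped. LHCB4.3 was at 0.08 ± 0.19 (interval -0.36 to 0.52) with overlapping arrays. LHCB4.1 lay on the other side of 0, at -0.41 ± 0.20 (interval -0.88 to 0.06), and both arrays after red light were below both dark ones. The adjusted p of each rounded to 1.

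None of the 3 was called after red light on lincomycin, against 0.0615% of all probe sets. Before adjustment 0 of 3 had a limma p under 0.05, against 3.85% of all probe sets. LHCB4.1 was the 1 of 3 whose arrays did not overlap, lower after light, as in 22.9% of all probe sets. It was also the 1 of 3 that was higher after light without lincomycin and lower on it with no overlap on either medium, as were 4.11% of all probe sets. Its value rested on replicate 2 of the red lincomycin group: it was -0.13 without that array and -0.70 without replicate 1. The intervals of LHCB4.2 and LHCB4.3 do not show that light had no effect on them, since each includes differences of over 1.4-fold upward, 1.73-fold for LHCB4.2 and 1.43-fold for LHCB4.3. These intervals take their spread from all 8 arrays, including the groups without lincomycin. With only the 4 arrays of this comparison the SE was 0.19 for LHCB4.2 and 0.13 for LHCB4.3.

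Lincomycin in darkness gave differences of up to 0.27 (log2) below 0 and 0.18 above it. LHCB4.1 was at -0.25 ± 0.20 (1.19-fold lower, adjusted p = 0.593), and its 2 lincomycin arrays were below its 2 dark arrays. LHCB4.3 was at -0.27 ± 0.19 (adjusted p = 0.519) and LHCB4.2 at 0.18 ± 0.33 (adjusted p = 0.848), both with overlapping arrays. In this comparison 0 of 3 were called, against 0.98% of all probe sets, and 0 of 3 had an unadjusted limma p under 0.05, against 18.1%. LHCB4.1 was the 1 of 3 with no overlap, lower on lincomycin, as in 25.6% of all probe sets.

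The dark arrays set the sign for LHCB4.2, which was at -0.24 without dark replicate 1 and 0.59 without dark replicate 2. LHCB4.3 was at -0.05 and -0.49 in the same order. The value of LHCB4.1 stayed between -0.19 and -0.30 with any 1 array left out.

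After red light, all 3 LHCB4 genes had lower levels on lincomycin than without it. LHCB4.2 was at -1.20 ± 0.33 (2.29-fold lower, interval -1.98 to -0.41, adjusted p = 0.386). LHCB4.1 was at -1.04 ± 0.20 (2.06-fold lower, interval -1.51 to -0.57, adjusted p = 0.225). LHCB4.3 was at -0.63 ± 0.19 (1.55-fold lower, interval -1.07 to -0.19, adjusted p = 0.411). Each gene's 2 lincomycin arrays were below its 2 red arrays, by at least 1.60-fold for LHCB4.1, 1.53-fold for LHCB4.2 and 1.41-fold for LHCB4.3.

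No LHCB4 gene passed the adjusted test on lincomycin after red light, which 0.0264% of all probe sets did. Groups without overlap, lower on lincomycin, were found for 3 of 3 LHCB4 genes and 20.5% of all probe sets. An unadjusted limma p under 0.05 with a lower value was found for 3 of 3 and for 3.84% of all. The unadjusted values were 0.00117 for LHCB4.1, 0.00849 for LHCB4.2 and 0.0116 for LHCB4.3. Among all probe sets, 0.32% had a lower change than LHCB4.2, 0.51% than LHCB4.1 and 2.67% than LHCB4.3.

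This comparison and that of red light without lincomycin share the 2 red arrays, so the higher red level enters both and they are not independent. The changes after red light kept their sign with each array left out. LHCB4.1 ran from -1.33 to -0.75, the ends being the fits that left out red lincomycin replicate 1 or replicate 2, and LHCB4.2 ran from -1.49 to -0.90. LHCB4.3 ran from -0.73 to -0.53. Without dark replicate 1 and red replicate 1 the values were -0.97, -1.48 and -0.60 for LHCB4.1, LHCB4.2 and LHCB4.3, with adjusted p of 0.145, 0.0620 and 0.201.

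**Figure D3:**
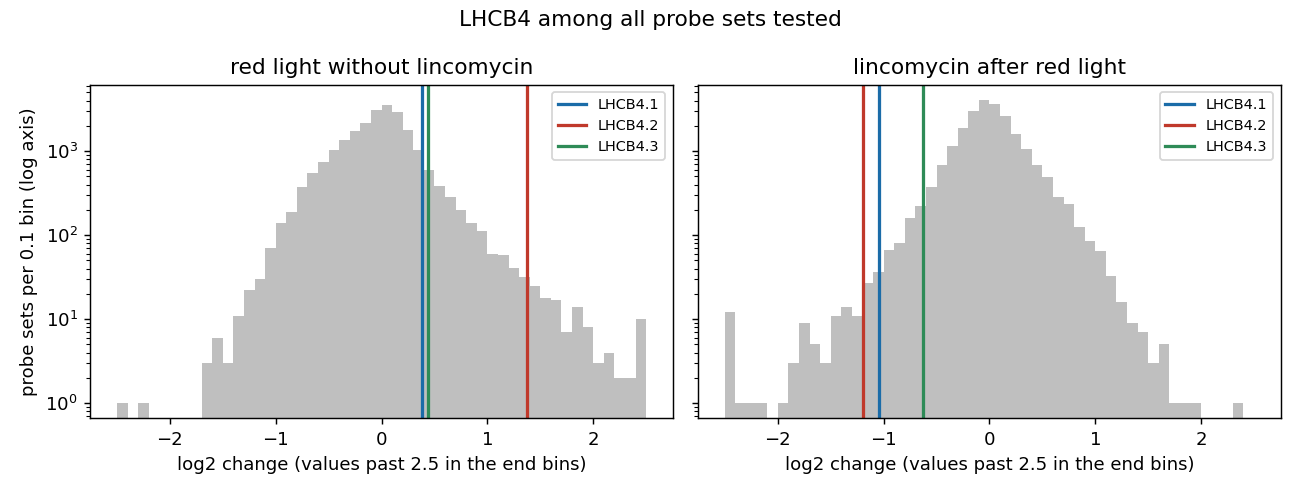
Histograms of the log2 change of all 22746 probe sets (log count axis) after red light without lincomycin (left) and on lincomycin after red light (right), with lines at LHCB4.1, LHCB4.2 and LHCB4.3. LHCB4.2 lies in the upper tail at 1.38 on the left, and all 3 genes lie below 0 on the right, LHCB4.2 at -1.20, LHCB4.1 at -1.04 and LHCB4.3 at -0.63.

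The interaction asked whether the light difference itself differed between the media. It was -1.37 ± 0.47 for LHCB4.2 (interval -2.48 to -0.26, adjusted p = 0.408), -0.79 ± 0.28 for LHCB4.1 (interval -1.46 to -0.13, adjusted p = 0.418) and -0.36 ± 0.26 for LHCB4.3 (interval -0.98 to 0.26, adjusted p = 0.720). For LHCB4.1 the light difference changed sign, from 0.38 without lincomycin to -0.41 on it. All 3 interaction values were below 0, the direction of a light difference that is lower on lincomycin. None was called, and 0% of all probe sets were, while 10.4% had an unadjusted limma p under 0.05 (2359 probe sets). Before adjustment 2 of 3 LHCB4 genes were below 0 at p under 0.05, LHCB4.2 at 0.0220 and LHCB4.1 at 0.0258, against 3.87% of all probe sets. The interaction of LHCB4.3 ranged from -0.58 without dark replicate 1 to -0.14 without dark replicate 2, and that of LHCB4.2 from -0.96 to -1.79 in the same order. Without replicate 2 of the red lincomycin group the interaction of LHCB4.1 was -0.51.

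**Figure D4:**
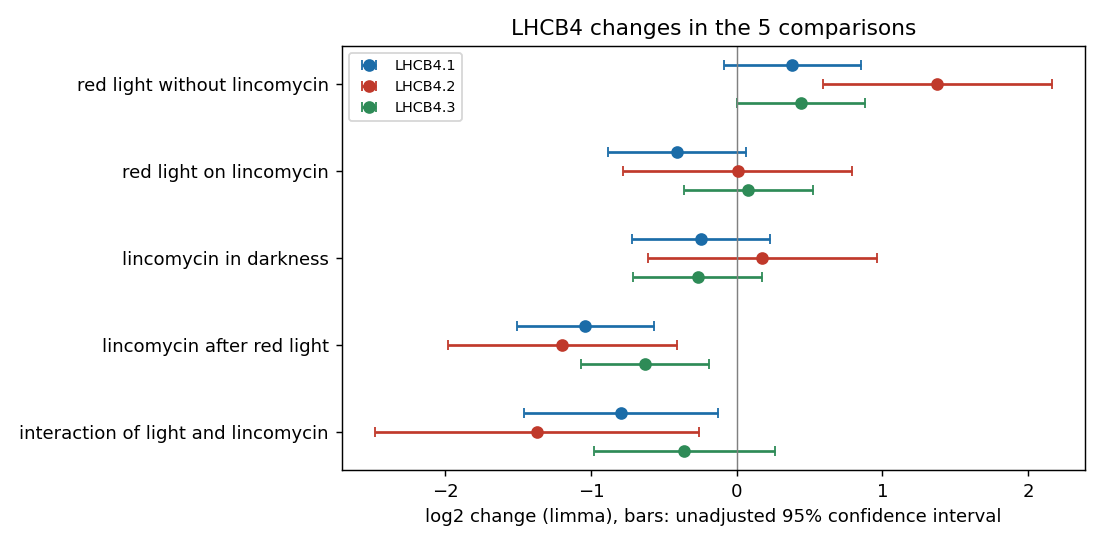
Log2 change of LHCB4.1, LHCB4.2 and LHCB4.3 in each of the 5 comparisons with unadjusted 95% confidence intervals of the limma fit. The interval of LHCB4.2 after red light without lincomycin (0.59 to 2.16), all 3 intervals on lincomycin after red light, and the interactions of LHCB4.1 and LHCB4.2 leave out 0; no value passed adjustment.

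The 3 genes were also set against one another within each array, as the difference of their log2 intensities, which removes what an array does to all 3 alike. With red light and no lincomycin, the change of LHCB4.2 exceeded that of LHCB4.1 by 1.00 (log2), a 1.99-fold difference. The LHCB4.2 minus LHCB4.1 values were -1.70 and -0.99 on the red arrays and -2.71 and -1.97 on the dark arrays, with no overlap. On lincomycin the light change of LHCB4.2 exceeded that of LHCB4.1 by 0.42, at -1.49 and -1.51 after light against -1.93 and -1.90 in darkness.

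LHCB4.3 and LHCB4.1 differed by 0.06 in their change after red light without lincomycin, with overlapping arrays, and by 0.49 on lincomycin, with none. LHCB4.3 was at -0.94 relative to LHCB4.2 after red light without lincomycin, but the arrays overlapped (-3.06 and -3.69 against -1.81 and -3.07). In the comparison of lincomycin after red light all 3 pairs overlapped. Over the 12 tests, 3 pairs in 4 comparisons, 4 had no overlap, and the two-sided exact permutation p was 0.333 at the lowest (0.999 adjusted over the 12). With 2 arrays against 2 there are 6 arrangements, and 0.333 is the smallest p they can give. The same 0.333 is the share of arrangements that leave no overlap. The 4 of 12 are therefore not read as differences between the genes.

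Of 21 light-harvesting genes listed for the comparison, the 3 LHCB4 genes were those with a probe set assigned to exactly 1 gene in the annotation used, and the other 18 were not analysed here. Other genes of photosystem II could be set beside them. PSBY, a small membrane protein of photosystem II, stood at 949 and 952 in the red group and 431 and 513 in the dark group, and at 580 and 610 and then 644 and 518 in the dark and red lincomycin groups. PSB27, which acts in assembly and repair of photosystem II, stood at 963 and 1012 in the red group, 554 and 647 in the dark group, 638 and 689 in the dark lincomycin group and 740 and 539 in the red lincomycin group. For both genes the 2 red arrays were the highest of the 8, as for the LHCB4 genes.

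The log2 change of PSBY after red light was 1.01 ± 0.16 without lincomycin (adjusted p = 0.0800) and -0.04 ± 0.16 on it. That of PSB27 was 0.72 ± 0.18 (adjusted p = 0.167) and -0.07 ± 0.18. On lincomycin after red light PSBY was at -0.72 and PSB27 at -0.64, and in darkness at 0.34 and 0.15. PSBW, another small photosystem II subunit, had overlapping red and dark arrays (0.12 ± 0.23). It was at -0.69 on lincomycin in darkness and -0.76 after red light. As a list, 3 of 11 photosystem II genes were measured, and 0 were called in either direction in any of the 5 comparisons. Their median after red light without lincomycin was 0.72, against 0.44 for the 3 LHCB4 genes and a median that rounds to 0.00 over all probe sets. On lincomycin after red light the medians were -0.72, -1.04 and -0.01 in that order.

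For the measured photosystem I genes, 2 of 12, the red arrays were not the 2 highest of the 8. For PSAN this was narrow, with the lower red array at 820 against 833 on the highest other array. For PSAE-1 the red arrays stood at 1761 and 909, against 1260 on the highest other array. PSAE-1, a subunit at the ferredoxin docking side, fell by 2.01 ± 0.28 on lincomycin in darkness (adjusted p = 0.0406). PSAN, a lumenal subunit, fell by 1.08 ± 0.15 there (adjusted p = 0.0395). Both calls were lower and were those of 2 of 2 measured members, while 0 of 3 LHCB4 genes were called in that comparison; whether the LHCB4 changes differed from theirs was not tested. Both calls held without dark replicate 2 or either red array, and were lost without dark replicate 1 (adjusted p of 0.0542 and 0.0517), either red lincomycin array (0.127 for both genes) or either dark lincomycin array (0.327 and 0.345 for both). With each array left out, the changes themselves stayed between -1.94 and -2.07 for PSAE-1 and between -0.95 and -1.20 for PSAN. Each gene was called in 5 of the 9 other settings. Both calls were lost with low values raised to the 20th percentile (0.101 and 0.0536) and with only the 4 arrays of the comparison (0.138 and 0.156). That of PSAE-1 was also lost with a pseudocount of 16 (0.0533), and that of PSAN with eBayes trend and robust (0.0514). After red light without lincomycin PSAE-1 was at 0.07 ± 0.28 and PSAN at 0.19 ± 0.15. The light change on lincomycin was 0.16 ± 0.28 for PSAE-1 and 0.49 ± 0.15 for PSAN. On lincomycin after red light PSAE-1 was at -1.92 ± 0.28 (adjusted p = 0.122) and PSAN at -0.77 ± 0.15 (adjusted p = 0.225). Both were lower there without overlap, as were the LHCB4 genes and 20.5% of all probe sets.

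The 2 measured LHC-like genes of 7, LIL3.1 (AT4G17600) and LIL3.2 (AT5G47110), encode membrane proteins related to the antenna that act in chlorophyll synthesis. LIL3.1 was at -0.42 ± 0.18 after red light without lincomycin and at 0.23 ± 0.18 on lincomycin after red light, and LIL3.2 at -0.20 ± 0.16 and 0.17 ± 0.16. Each of these 4 values had the opposite sign to those of the LHCB4 genes, and 0 of 2 were called in any comparison. Of 12 light and plastid signalling regulators 1 was measured, HYH, a bZIP factor related to HY5, which stood at 11.4 to 16.3 and overlapped between groups in all 4 pairwise comparisons. Its log2 values, 3.51 to 4.02, lay close to the 20th percentile of all values (3.505). At so low a signal the overlap does not show that HYH had no response. None of the 8 listed genes for import, insertion and phosphorylation of antenna proteins had a probe set assigned to 1 gene.

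**Figure D5:**
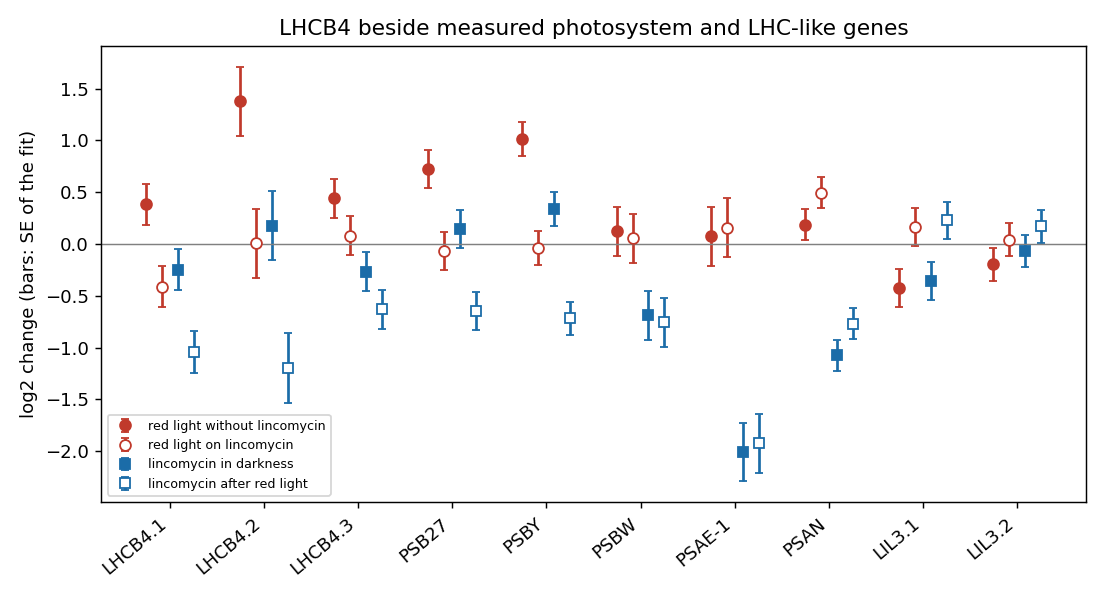
Log2 change (bars are the SE of the fit) of the 3 LHCB4 genes and 7 other measured genes of the photosystems and LHC-like proteins in the 4 pairwise comparisons. PSBY and PSB27 lie with LHCB4.2 above 0 after red light without lincomycin and near 0 on lincomycin, while PSAE-1 and PSAN are the lowest of the 10 on lincomycin in darkness, at -2.01 and -1.08.

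Likeness of pattern was measured as Pearson's r of log2 intensity over the 8 arrays, among 8852 other probe sets with exactly 1 gene and a range of at least 0.5 (log2). It describes these arrays, which share groups and normalization, and carries no test. The most like LHCB4.2 were PSB27 (r = 0.961), AT4G17840 (r = 0.939) and PSBY (r = 0.934). The most like LHCB4.1 were AT2G20230 (r = 0.954), AT2G36290 (r = 0.952) and HPR (r = 0.942), the hydroxypyruvate reductase of photorespiration. HPR stood at 795 and 640 in the red group, 540 and 575 in the dark group, 326 and 317 in the dark lincomycin group and 345 and 236 in the red lincomycin group. All 4 of its lincomycin arrays were below the 4 others, as for LHCB4.1. HPR was picked by its r over these same arrays, so this likeness is not separate evidence.

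For LHCB4.3 the most like were AT4G24700 (r = 0.979), AT1G20030 (r = 0.951) and AT3G14880 (r = 0.945). Among the LHCB4 genes themselves r was 0.665 between LHCB4.1 and LHCB4.2, 0.657 between LHCB4.1 and LHCB4.3 and 0.538 between LHCB4.2 and LHCB4.3. LHCB4.1 ranked 193rd in likeness to LHCB4.2, and LHCB4.3 ranked 549th.

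Of 11 markers of seedling parts and of the dark-grown state, 1 was measured, so the labelled tissue could be checked only by EXPA7, an expansin of root hair cells. EXPA7 stood at 60.1 and 47.2 in the red group, 21.1 and 27.8 in the dark group, 41.7 and 58.9 in the dark lincomycin group and 41.4 and 32.2 in the red lincomycin group. It was at 1.14 ± 0.25 after red light without lincomycin (adjusted p = 0.133), higher with no overlap, as in 16.9% of all probe sets. On lincomycin after red light it was at -0.54 ± 0.25. These 2 signs are those of all 3 LHCB4 genes. In darkness EXPA7 was at 1.03 ± 0.25 on lincomycin (adjusted p = 0.0927), where LHCB4.1 was at -0.25, LHCB4.3 at -0.27 and LHCB4.2 at 0.18. After red light on lincomycin it was at -0.44 ± 0.25, where LHCB4.1 was at -0.41 and the other two genes were at 0.01 and 0.08. The part of tissue makeup in the LHCB4 values was not tested. In RNA of whole seedlings, fewer cells with active antenna genes and less RNA per cell cannot be told apart.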

How the data were processed

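The authors deposited 1 intensity per probe set and array, made with RMA per the submitters' processing notes; its version and any batches of arrays are not given in the sources used here. These linear-scale deposited intensities were log2-transformed with no pseudocount. Tests ran on 22746 of 22810 probe sets, the other 64 being controls. Genes came from the platform annotation, updated through a RefSeq gene table: 13513 probe sets had exactly 1 gene, 503 several and 8730 none. Of the 13513, 13436 matched a RefSeq gene.

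Group means over all 8 arrays were fitted with limma 3.58.1 (lmFit, eBayes) under R 4.3.3 (residual degrees of freedom 4, prior 3.19). Tests were two-sided, and a call needed an adjusted p (Benjamini-Hochberg, over all probe sets) under 0.05. The procedure was run on simulated data in which all groups of a probe set had the same spread. That does not cover the wider spread of the dark and red replicates here. Within-array differences used exact permutation tests in scipy 1.17.1. Members, lists and rules were chosen with earlier results of these data known. Named were all LHCB4 genes, list members that were called or of lowest p, all other measured members of the small lists, and the 3 nearest patterns per gene. Alternatives covered normalization, dim and low values, variance model, replicate block, arrays in the fit, a pseudocount of 16 and arrays left out. The number of arrays limits precision. No sequence was printed.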

Additional observations from a re-analysis of the deposited data

Results flagged for a closer look

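LHCB4.1 had both red arrays above both dark arrays without lincomycin (2731 and 2461 against 1932 and 2048) and both below on lincomycin (1537 and 1034 against 1616 and 1740). It was singled out because its red and dark arrays did not overlap on either medium, with opposite directions without and on lincomycin. The interaction that tests this difference was -0.79 ± 0.28 (log2) with a limma adjusted p of 0.418 (0.0258 unadjusted), so it did not pass. The same arrangement, higher without and lower on lincomycin with no overlap on either medium, was found in 934 probe sets (4.11% of those tested). The gap on lincomycin was 1.05-fold at the nearest arrays, within the 1.49-fold spread of the red lincomycin replicates.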

How the results depend on the processing

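Of 252 values of the LHCB4 changes under the alternatives, 245 kept their sign and 1 was called. The number of LHCB4 genes called stayed at 0 in each comparison except red light without lincomycin, where it ran from 0 to 1 with arrays left out in turn (1 without dark replicate 2). The 7 reversals were small values. For LHCB4.2 after red light on lincomycin they were -0.024 with array medians shifted to a common value, -0.06 without dark lincomycin replicate 1 and -0.29 without red lincomycin replicate 1, the leave-one-out fits running from -0.29 to 0.30. For LHCB4.3 in that comparison they were -0.039 without dark lincomycin replicate 1 and -0.02 without red lincomycin replicate 2, within a range of -0.039 to 0.20. For LHCB4.2 on lincomycin in darkness the value was -0.24 without dark replicate 1, within a range of -0.24 to 0.59, and -0.24 without both dark replicate 1 and red replicate 1.

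The counts of all called probe sets, the background for the LHCB4 genes, moved far more. Against 43 after red light without lincomycin, there were 96 with medians shifted, 28 with low values raised to the 20th percentile, 949 without the 2 arrays in doubt and 0 with only its 4 arrays (1549 at an unadjusted limma p under 0.05). Against 14 for red light on lincomycin, there were 0 with low values raised (1129 unadjusted), 0 with a pseudocount of 16 (1093 unadjusted), 150 without the 2 arrays in doubt and 150 with only its 4 arrays. Against 223 for lincomycin in darkness, there were 341 with medians shifted, 124 with low values raised, 108 with eBayes trend and robust, 3746 without the 2 arrays in doubt and 0 with only its 4 arrays (3571 unadjusted). Against 6 for lincomycin after red light, there were 18 with medians shifted, 1 after quantile normalization, 26 without the dimmest 30%, 0 with low values raised (1884 unadjusted), 21 with trend and robust, 1 with the pseudocount and 90 without the 2 arrays in doubt. With 1 array left out in turn the counts ran from 0 to 1219, 0 to 28, 0 to 1950 and 0 to 32 in the same order. For the interaction they ran from 0 to 609, and 1219, 1950 and 609 were all without dark replicate 2. In the fits with 1 array left out that gave 0 calls, 382 to 3427 probe sets had an unadjusted limma p under 0.05. A group left with 1 array took its spread from the other groups. The cause of these shifts was not tested.

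Replicate numbers were shared by the groups without a stated pairing. Replicate differences correlated across probe sets at 0.44 between the dark and red groups, 0.13 between the lincomycin groups, -0.09 between the dark groups and -0.12 between the red groups. The correlation was -0.33 between the dark and red lincomycin groups and -0.17 between the red and dark lincomycin groups. With the replicate block 7, 1, 4, 1 and 0 probe sets were called in the 5 comparisons (2346 unadjusted in the interaction), and 0 LHCB4 genes. The block also ended the calls of PSAE-1 and PSAN on lincomycin in darkness (adjusted p = 0.0526 and 0.0619). Shifting array medians moved the median interaction of all probe sets from -0.01 to -0.13, with LHCB4.1 at -0.91, LHCB4.2 at -1.49 and LHCB4.3 at -0.48. It also moved the background: 23.3% of probe sets were then higher without overlap after red light without lincomycin (8% with an unadjusted p under 0.05), and 24.3% lower on lincomycin after red light (4.41%). All 3 LHCB4 genes kept non-overlapping groups in both.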
